A study of Homo sapiens with 2 samples.

Results

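The kinesin family was examined on arrays of KYSE150, a cell line from a human squamous carcinoma of the esophagus. Members were the genes whose symbol in the array's annotation starts with KIF or KIFC and a digit, measured by a row of the array that carries this symbol alone, with antisense genes and pseudogenes left out. The rule found 42 kinesin genes out of 22465 genes that had such a row. Where a gene had several rows, the row with the highest mean of both arrays stood for it, which concerned KIFC1 with 4 rows and KIF7 with 2.

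The study compared 2 groups, each with 1 Affymetrix Human Transcriptome Array 2.0. The knockdown cells stably carried a hairpin (shlncRNA625) directed at lncRNA625, a long non-coding transcript, and the control cells carried a scrambled hairpin (shscramble). The methods describe lentiviral delivery of both hairpins, puromycin after infection with the knockdown virus, and a screen of several clones for loss of lncRNA625. The sources used here do not say whether the arrayed RNA came from 1 clone or several, and a sample label speaks of siRNA in place of a hairpin. With 1 array per group replicates were lacking, nothing could be tested and values carry no error, so each difference below describes these arrays only and was not set against a spread between replicates. No row was tied to lncRNA625, so the loss of the target itself was not checked.

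Kinesins are motor proteins that turn the energy of ATP into movement along microtubules or into the loss of tubulin from microtubule ends. Mitotic kinesins build the spindle, move chromosomes and complete cytokinesis, and their genes are switched on in G2 and mitosis through promoters that often hold a cell cycle genes homology region (CHR), bound by MuvB complexes, and CCAAT boxes, bound by NF-Y. Transport kinesins carry vesicles, organelles and RNA in cells at all stages of the cycle, and several of them are best known from neurons. The family was therefore divided into mitotic, transport, cilium and other kinesins, and the first 2 classes were contrasted.

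The promoters of the 3 kinesins that differed by more than 0.1 on the log2 scale between the arrays (KIF20A, KIF1C and KIF1B) are shown with those of 5 that were equal, because the CHR core was found mainly in the mitotic class. Each is the stretch of 150 bases up to the last base before the RefSeq transcription start (GRCh38.p14), written 5′ to 3′ on the strand of the gene, with TTTGAA (the core of the CHR), CCAAT and the reverse complement of either in capitals. KIF20A, KIF23, KIF11, KIF4A and KIF18A are mitotic kinesins, and KIF1C, KIF1B and KIF5B are transport kinesins. KIF1B has 3 listed starts, of which the most upstream was taken.
KIF20A (chr5:138178962-138179111, plus strand): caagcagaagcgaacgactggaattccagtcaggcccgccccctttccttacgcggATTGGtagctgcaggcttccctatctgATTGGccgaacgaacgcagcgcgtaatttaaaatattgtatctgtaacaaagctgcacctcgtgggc
KIF23 (chr15:69414199-69414348, plus strand): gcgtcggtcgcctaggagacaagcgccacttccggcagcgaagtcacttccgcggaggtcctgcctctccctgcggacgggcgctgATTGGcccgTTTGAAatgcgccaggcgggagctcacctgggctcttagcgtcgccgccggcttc
KIF11 (chr10:92592980-92593129, plus strand): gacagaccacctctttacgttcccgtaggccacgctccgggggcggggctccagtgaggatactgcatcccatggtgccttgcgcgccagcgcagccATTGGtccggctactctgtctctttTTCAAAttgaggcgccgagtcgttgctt
KIF4A (chrX:70289954-70290103, plus strand): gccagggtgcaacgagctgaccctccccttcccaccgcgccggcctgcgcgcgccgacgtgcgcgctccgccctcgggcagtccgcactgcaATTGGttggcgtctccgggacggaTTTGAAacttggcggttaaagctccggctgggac
KIF18A (chr11:28108157-28108306, minus strand): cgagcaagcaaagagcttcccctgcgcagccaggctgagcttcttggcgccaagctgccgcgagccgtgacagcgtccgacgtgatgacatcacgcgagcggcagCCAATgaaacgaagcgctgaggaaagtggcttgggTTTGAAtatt
KIF1C (chr17:4997800-4997949, plus strand): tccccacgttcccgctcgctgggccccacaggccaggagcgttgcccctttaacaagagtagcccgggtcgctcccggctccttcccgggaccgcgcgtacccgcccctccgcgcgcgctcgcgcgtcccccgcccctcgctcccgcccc
KIF1B (chr1:10210420-10210569, plus strand): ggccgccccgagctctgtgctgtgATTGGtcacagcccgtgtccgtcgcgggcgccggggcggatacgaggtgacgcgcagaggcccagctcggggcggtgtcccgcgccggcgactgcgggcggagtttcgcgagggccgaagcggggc
KIF5B (chr10:32056426-32056575, minus strand): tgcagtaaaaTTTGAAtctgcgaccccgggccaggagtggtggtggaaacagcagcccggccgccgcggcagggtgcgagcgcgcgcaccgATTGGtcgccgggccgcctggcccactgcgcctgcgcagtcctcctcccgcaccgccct

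Both motifs were searched on both strands of the RefSeq windows of 300 bases, which run from 250 bases before the start to 50 after it. Windows were listed for 34 of the 42 kinesins. Of the 14 mitotic kinesins, 10 held TTTGAA, 11 held CCAAT and 9 held both. Of the 11 transport kinesins with a window, 1 held TTTGAA (KIF5B), 4 held CCAAT and 1 held both. Over all 27305 genes with a window, 18.2% held TTTGAA, 39.7% held CCAAT and 8.37% held both. The motifs did not overlap in any kinesin window. In the KIF11, KIF4A and KIF23 promoters above, the CHR core starts 28, 34 and 55 bases before the start and follows an inverted CCAAT box. The KIF20A window held 2 inverted CCAAT boxes and no TTTGAA, and the KIF1C window held neither motif. Each equal promoter shown above holds TTTGAA, but the genes to show were picked and do not stand for all equal kinesins. KIF5B was the only transport kinesin with TTTGAA in a window, and KIF3B, equal and not shown, held CCAAT only. The mitotic kinesins KIF22, with CCAAT only, and KIF2C, with neither motif, lacked TTTGAA and were also equal on the arrays. A link between motif and difference was not tested. Only the exact letters TTTGAA were searched, so other forms of the CHR were not sought. These matches describe the letters of the windows, and binding was not measured.

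On the arrays, 29 of the 42 kinesins reached the signal limit, a mean of both arrays of at least 4.97, which is the median over rows with 1 gene symbol. These were 13 of 14 mitotic, 10 of 15 transport, 4 of 6 cilium and 2 of 7 other kinesins. Over all genes 11323 reached it. KIF7 lay just inside the limit with 5.02 and KIF19 just outside with 4.74. Background probe rows, of which there were 23, reached 6.003, and 4 kinesins past the limit (KIF4B, KIFC3, KIF7 and KIF9) did not exceed that value. All values are log2 signals as deposited, differences are knockdown minus control, and the signal of a row depends on its probes, so that levels of different genes were not set against each other.

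Of the 29 kinesins, 4 had different values on the arrays and 25 had exactly equal values. KIF1C, KIF1B and KIF20A were lower on the knockdown array, and KIF13B was higher by 0.005. Over all genes past the limit 24.0% differed at all, 12.1% being lower and 11.8% higher. The split by any amount depends on scaling, since 0 kinesins were higher and 29 lower after median centring, and 12 were higher and 17 lower after a trend with signal was removed. A difference of more than 0.1 was found for 3 of 29 kinesins, all lower on the knockdown array, and for 13.4% of all genes. At the limit of 1.5-fold, 0 of 29 kinesins were past it in either direction, against 1.59% of all genes, with 0.477% lower and 1.11% higher. At 2-fold the counts were 0 kinesins and 0.389% of all genes. The median difference was 0 for the kinesins and 0 for all genes, and the means were -0.033 and 0.0053.

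**Figure D1:**
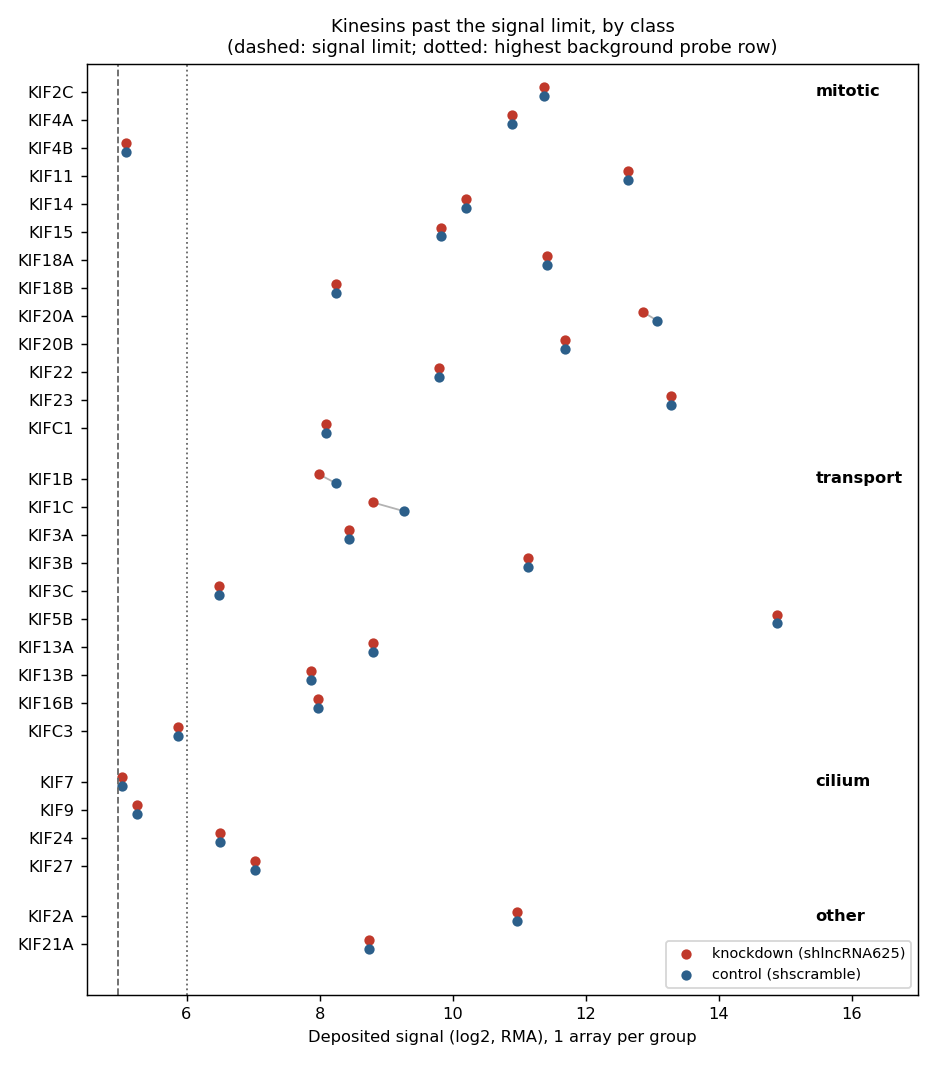
Deposited log2 signal (horizontal axis) of the 29 kinesins past the signal limit on the knockdown array (red, upper point of each row) and on the control array (blue, lower point), by class. There is 1 array per group, so there are no error bars. Only KIF20A, KIF1B and KIF1C show points that visibly part.

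KIF1C had the largest difference of the family. This motor carries dense core vesicles, integrins and mRNA towards the cell periphery. Its signal was 8.80 on the knockdown array, against 9.27 on the control array, a log2 difference of -0.48, or 1.39-fold lower. Of all genes past the limit, 89 had a difference as low or lower, which is 0.786%. Of the 1429 genes whose mean signal lay within 0.5 of that of KIF1C, 1.19% did.

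KIF1B, whose isoforms carry mitochondria and precursors of synaptic vesicles, belongs to the same subfamily as KIF1C. Its signal was 7.99 on the knockdown array and 8.25 on the control array, a log2 difference of -0.26, or 1.19-fold lower. Of all genes past the limit, 2.82% had a difference as low or lower, and of the 1653 genes of similar signal 2.42% did. Its relative KIF1A, a neuronal motor, stayed below the limit at 4.14 on both arrays. KIFBP, a protein that binds the motor domain of several kinesins and keeps them from microtubules, was equal at 11.06 on both arrays.

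KIF20A was the only mitotic kinesin with a difference. It brings the chromosomal passenger complex to the central spindle and is needed for cytokinesis. Its signal was 12.85 on the knockdown array, against 13.07 on the control array, a log2 difference of -0.22, or 1.16-fold lower. Of all genes past the limit 3.54% had a difference as low or lower, and of the 257 genes of similar signal 9.34% did.

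The remaining mitotic kinesins had exactly equal values on both arrays. Among the motors that set up the bipolar spindle, KIF11, which slides antiparallel microtubules apart, was at 12.64, KIF15, which can stand in for it, at 9.83, and KIFC1, a minus end directed motor that gathers spindle poles, at 8.10. All 4 rows of KIFC1 were equal between the arrays, but all except the chromosome 6 row are alternate haplotype copies of the same locus. They are not separate measurements. Among the motors that act on chromosomes and microtubule ends, KIF2C, a depolymerase of centromeres, was at 11.37, KIF18A, which dampens the movement of aligned chromosomes, at 11.41, KIF18B at 8.24 and the chromokinesins KIF22 and KIF4A at 9.79 and 10.88. Among the motors of cytokinesis, KIF23, which forms centralspindlin with RACGAP1, was at 13.28, KIF20B at 11.69 and KIF14 at 10.20. KIF4B, at 5.10, is a near-identical copy of KIF4A that can share its probes, and KIF2B stayed below the limit at 3.37. None of these 12 kinesins, and not KIF2B, parted between the arrays. The mitotic mean was -0.017 over 13 genes.

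Of the transport kinesins past the limit, 3 of 10 differed and 7 were exactly equal. KIF5B, the heavy chain of conventional kinesin, was at 14.88 on both arrays, while its neuronal relatives KIF5A and KIF5C stayed below the limit. KIF3A and KIF3B, which form the motor of intraflagellar transport, were at 8.45 and 11.13 on both arrays, and KIF3C at 6.49. Among the endosomal and Golgi motors, KIF13A was at 8.80 and KIF16B at 7.97 on both arrays. KIF13B was at 7.88 on the knockdown array and 7.87 on the control array, the only kinesin that was higher. Its difference is so small that its sign turned under each of 3 other scalings. KIFC3, at 5.88, was equal, and KIF1A, KIF5A, KIF5C, KIF17 and KIFC2 lay between 3.87 and 4.72 with equal values. The transport mean was -0.073 over 10 genes and rests on KIF1C and KIF1B.

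The mitotic mean exceeded the transport mean by 0.056, which rests on KIF1C, KIF1B and KIF20A and was not tested. It was 0.033 with no signal limit and 0.078 after a second quantile normalization. With differences of more than 0.1 the classes held 1 of 13 and 2 of 10 genes. Both medians were 0. The proliferation marker MKI67 was at 14.21 on the knockdown array and 14.20 on the control array, and TOP2A and PCNA were equal at 14.06 and 11.68. In bulk RNA such as this, fewer cells in mitosis and less RNA per mitotic cell cannot be told apart.

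The kinesins of cilia past the limit were KIF7, a regulator of Hedgehog signalling at the cilium tip, at 5.02, KIF9 at 5.26, KIF24, a depolymerase that restrains cilium formation, at 6.50, and KIF27 at 7.03. All 4 were equal on both arrays. In the last class KIF2A, a depolymerase of spindle poles and of growing neurites, was at 10.97 and KIF21A, which slows microtubule growth, at 8.74, both equal. KIF6, KIF19, KIF12, KIF21B, KIF25, KIF26A and KIF26B lay between 4.03 and 4.74 with equal values. In all, 13 of 13 kinesins below the limit were equal.

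Exactly equal values were common on these arrays, so an equal value cannot be read as a measured absence of change. The share of equal values was lower at higher signal. It was 90.4% over all genes with a mean between the limit and 6, 71.3% from 8 to 10, 58.1% from 10 to 12 and 44.9% from 12 upwards. Of the kinesins with a mean of at least 8, 17 of 20 were equal, against 63.5% of 5031 genes. Of mitotic kinesins in this range 11 of 12 were equal, of transport kinesins 4 of 6. Across kinesins with a mean from 10 to 12, 7 of 7 were equal.

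**Figure D2:**
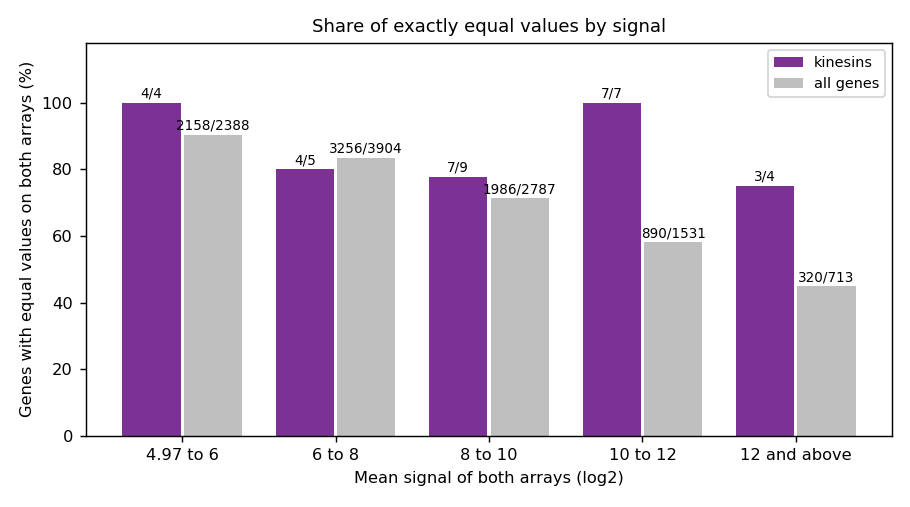
Percentage of genes with exactly equal values on both arrays (vertical axis) by mean log2 signal (horizontal axis), for kinesins (purple) and all genes past the signal limit (grey), with the counts above each bar. The share over all genes is 90.4% in the dimmest bin and 44.9% in the brightest, and the kinesin bars rest on 4 to 9 genes each.

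The genes that kinesins work with were counted in the same way, with no test against the kinesins. Alpha and beta tubulins form the track of the motors, and gamma tubulins were counted with them. The list took symbols of TUBA, TUBB or TUBG followed by a digit, so the gene TUBB was not in it. Of 13 such genes past the limit, 8 were lower on the knockdown array, 5 were equal and 0 were higher. Of these, 6 were lower by more than 0.1, among them the gamma tubulin TUBG1 with a difference of -0.21. Over all genes past the limit 12.1% were lower, and 750 of 11323 were lower by more than 0.1. After removal of the trend with signal, 1 was higher and 12 were lower. Their median difference was -0.049, against 0 for all genes, and 0 passed the 1.5-fold limit. TUBA4A was at 9.35 on the knockdown array and 9.75 on the control array, a log2 difference of -0.39. TUBB4B was at 14.92 on the knockdown array and 15.18 on the control array, a difference of -0.26. TUBA1C was at 11.73 on the knockdown array and 11.96 on the control array, a difference of -0.23. Tubulin genes are close relatives that can share probes, so their counts are not those of independent genes. Of the 7 tubulins with a mean of at least 8, 1 was equal, which was TUBG2 at 9.45, against 63.5% of all genes in this range.

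Of 24 spindle partners of mitotic kinesins, 8 were lower on the knockdown array, 15 were equal and NUSAP1 was higher by 0.003. Of these, 6 were lower by more than 0.1, against 750 of 11323 genes, and 12.1% of all genes were lower by any amount. All 24 had a mean of at least 8, and their share of equal values, 62.5%, was near the 63.5% over all genes in this range. RACGAP1, which joins KIF23 in centralspindlin, was the only partner past the 1.5-fold limit, which 0.477% of all genes passed in this direction. It was at 10.65 on the knockdown array and 11.78 on the control array, a difference of -1.13, while KIF23 was equal. Among the proteins that travel with KIF20A, the kinase AURKB differed by -0.19, with 9.11 on the knockdown array and 9.30 on the control array. INCENP and CDCA8 were equal at 9.48 and 9.08, and BIRC5 differed by -0.006. The kinases AURKA and PLK1 differed by -0.23 and -0.21. TPX2, which binds KIF11 and KIF15, was equal at 14.99, and PRC1, the partner of KIF4A, at 11.76. CENPE, a kinesin of kinetochores whose symbol falls outside the rule, was equal at 10.64. These genes were named for their link to a kinesin, after their values had been seen. The median of the list was 0.

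**Figure D3:**
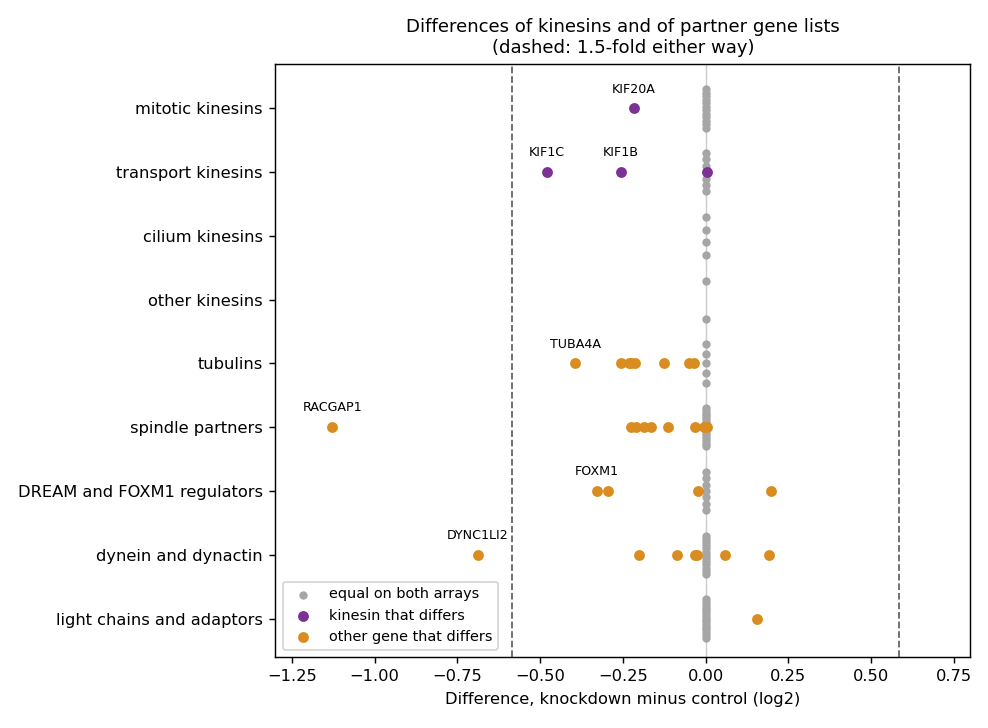
Log2 difference, knockdown minus control (horizontal axis), of every gene past the signal limit in the kinesin classes and the partner lists, with equal genes in grey and genes that differ in purple (kinesins) or orange. The kinesins lie between -0.48 and 0.005, inside the dashed lines at 1.5-fold, and RACGAP1 at -1.13 and DYNC1LI2 at -0.69 lie outside them.

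Of the 11 DREAM, MuvB and FOXM1 regulators that act on promoters with a CHR, 3 were lower on the knockdown array. Of the others, 1 was higher and 7 were equal. Over all genes past the limit 12.1% were lower, 11.8% higher and 76.0% equal. Most of the list had a mean of at least 8, though LIN9, LIN37 and LIN52 lay below it. The share of equal values over the whole list was 63.6%. LIN9, LIN37 and LIN52 were all equal and add to this share. It is therefore not directly comparable with the 63.5% over all genes with a mean of at least 8. FOXM1, an activator of G2 and mitosis genes, was at 11.05 on the knockdown array and 11.38 on the control array, a difference of -0.33. MYBL2, which joins MuvB in S phase, was at 9.86 on the knockdown array and 10.16 on the control array, a difference of -0.30. RBL2, the pocket protein of the repressive DREAM complex, was at 11.95 on the knockdown array and 11.76 on the control array, a difference of 0.20. The MuvB subunits LIN9, LIN37, LIN52, LIN54 and RBBP4 were equal. Each difference was below 1.5-fold, and the list median was 0.

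Cytoplasmic dynein moves against the direction of most kinesins, and dynactin is its cofactor. Of 20 genes of this list, 5 were lower on the knockdown array, 2 were higher and 13 were equal. Over all genes past the limit 12.1% were lower, 11.8% higher and 76.0% equal. Most of the list had a mean of at least 8, though DYNC1I1, DCTN3 and BICD1 lay below it. The share of equal values over the whole list was 65.0%. DYNC1I1, DCTN3 and BICD1 were all equal and add to this share, so it is not directly comparable with the 63.5% over all genes with a mean of at least 8. DYNC1LI2, a light intermediate chain that links dynein to cargo, was the only member past the 1.5-fold limit, which 0.477% of all genes passed in this direction, with 10.05 on the knockdown array and 10.73 on the control array, a difference of -0.69. Its paralog DYNC1LI1 differed by -0.20, and the heavy chain DYNC1H1 was equal at 11.85. Of the kinesin light chains, cargo adaptors and other genes counted with them, 15 of 16 genes were equal, against 76.0% of all genes. The exception was RAB3GAP1, a subunit of a Rab GTPase regulator, with 9.66 on the knockdown array and 9.51 on the control array, a difference of 0.15. The light chain genes KLC1, KLC2, KLC3 and KLC4, which join KIF5B, were equal at 9.02, 6.91, 5.51 and 5.17. The medians of both lists were 0.

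**Figure D4:**
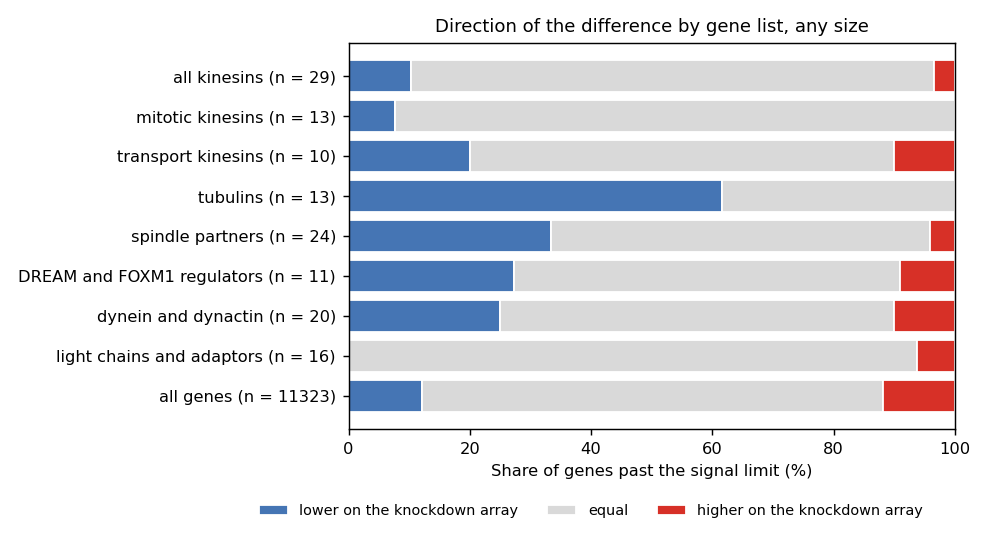
Share of genes past the signal limit (horizontal axis, in percent) that were lower (blue), equal (grey) or higher (red) on the knockdown array by any amount, for the kinesins, their classes, the partner lists and all genes. Lower values make up 10.3% of kinesins, 61.5% of tubulins and 12.1% of all genes.

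The label of the cells was checked against squamous markers. Of 5 squamous markers with a row of their own, KRT5 was at 16.11 on the knockdown array and 16.50 on the control array, DSG3 at 11.25 on the knockdown array and 11.51 on the control array, SOX2 at 8.40 on the knockdown array and 7.87 on the control array, and DSC3 was equal at 11.34. KRT14, at 5.63 on both arrays, did not exceed the brightest background probe row. Of 18 markers of fibroblasts, endothelium, leukocytes, columnar epithelium and neurons, 17 were equal and below the limit, between 3.50 and 4.68. The exception was SYT1, at 6.65 on the knockdown array and 6.64 on the control array. Median signals over all rows were 4.35 on the knockdown array and 4.34 on the control array.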

How the data were processed

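RNA of KYSE150 cells was hybridized to 2 arrays, 1 per group. The values deposited by the authors are described as log2 signals from RMA (version not stated), a method of background correction, quantile normalization and probe summarization. They reach 19.93, above what log2 of a 16-bit scanner allows, and 76.0% of genes past the signal limit are exactly equal on both arrays. The sources used here name no step behind either trait, so a fold limit holds on the deposited scale only. Of 70523 rows, 23781 had 1 gene symbol in the platform's annotation, and 21497 of these were matched by gene ID to RefSeq (GRCh38.p14), whose coordinates were not used for array rows. Values within 1e-06 were called equal. The limits were 1.5-fold and, as an alternative, 2-fold.

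No test was possible at this sample number, and precision is limited by the number of arrays. The kinesin members, classes and partner lists were chosen with earlier results of these data known. Every kinesin past the signal limit is named, and of each partner list the genes past 1.5-fold or, where none passed, the 3 with the largest absolute difference, other genes having been named after their values were seen. Differences beyond 0.1 were counted after the data had been seen. As alternatives the arrays were centred on their medians, quantile normalized once more or freed of a loess trend with signal (span 0.3, not robust, since most differences were 0). Others averaged a gene's rows, dropped the signal limit or set it at the 75th percentile, and moved genes between the classes. The code was run on simulated data, the control array copied with known shifts added to some genes and no noise. That run checks the code only and says nothing about the precision of these data. Python 3.11.15, pandas 2.3.3, NumPy 2.4.6, statsmodels 0.14.6 and matplotlib 3.10.9 were used.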

Additional observations from a re-analysis of the deposited data

How the results depend on the processing

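No paired analysis was possible because each group holds 1 array, and for the same reason no array could be left out. The count of kinesins that differ at all was 4 as deposited and 29 after median centring, after a second quantile normalization and after removal of the trend, with 13 in place of 1 mitotic and 10 in place of 3 transport kinesins. These steps give every equal gene a small difference by construction, from -0.062 to 0.017 for the equal kinesins. The split of higher and lower kinesins moved with them, with 1 higher and 3 lower as deposited, 0 and 29 after centring, 6 and 23 after quantile normalization and 12 and 17 after the trend was removed, and the sign of KIF13B turned under all 3. The median of all genes lay between -0.018 and -0.0065 under these scalings. Counted beyond 0.1, 3 kinesins differed under every setting run. Under the same settings 0 passed the 1.5-fold limit, and 0 passed the 2-fold limit as deposited. Across all settings KIF1C differed by -0.48 to -0.50, KIF1B by -0.26 to -0.27 and KIF20A by -0.21 to -0.22. The mitotic mean lay between -0.023 and -0.013, the transport mean between -0.098 and -0.049, and their difference between 0.033 and 0.078. The counts of genes that differ, 1 mitotic and 3 transport, did not change with KIF2A or CENPE counted as mitotic, nor with KIF21A and KIF21B in place of KIFC2 and KIFC3 as transport. Without the members in the range of the background probe rows, a setting chosen after seeing the data, 4 of 25 kinesins differed.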

Other observations

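Rows that stood for no kinesin were nearly all equal as well. The antisense genes KIF9-AS1, KIF23-AS1 and KIF25-AS1, which the rule leaves out, lay at 4.42, 4.21 and 3.97 on both arrays, below the signal limit. The second row of KIF7 was at 4.79 on the knockdown array and 4.82 on the control array, a difference of -0.031, while the row that stood for the gene was equal.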
